A study of Mus musculus with 4 samples.

Results

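The genes described here are the heavy chains of the axonemal dyneins (symbols Dnah), the cilia and flagella associated proteins (Cfap) and the subunits of the nexin-dynein regulatory complex (Drc). They were taken by symbol, as every symbol made of Dnah, Dnai, Cfap or Drc followed by a digit. This choice was made with earlier results of these data known. Of the 32285 genes counted, 52 had such a symbol, namely 16 Dnah, 33 Cfap and 3 Drc genes, and 0 had a Dnai symbol. The comparison asked whether the RNA of these genes was confined to ciliated nuclei, and whether its level in them differed between the genotypes. Single-nucleus RNA-Seq was done on whole lungs of 2 WT mice (labelled C57/BL6J) and 2 VEcad-TRF2DN-Tg mice, here called Tg mice. For the Tg mice, too, the study's methods give a C57/BL6J background, kept heterozygous by breeding with WT mice of that strain. All mice were aged 8 to 9 weeks, and the study's text gives a chronic exposure to hypoxia for both groups. The transgene of the Tg mice is driven by the VE-cadherin promoter, which is active in endothelial cells (ECs), and encodes a TRF2 that acts as a dominant negative at telomeres, so that the airway cells described here are not the cells that the transgene targets.

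A motile cilium moves through its axoneme, a cylinder of microtubule doublets around a central pair. Dynein heavy chains are the motors: outer arm dyneins set the beat frequency, inner arm dyneins shape the bend, and the nexin-dynein regulatory complex links neighbouring doublets and limits their sliding. Most Cfap proteins are structural parts of the axoneme, among them projections of the central pair, proteins inside the doublet wall, tethers of single dyneins and factors that help to assemble the arms. In the lung, motile cilia stand on the multiciliated cells of the airway epithelium, where they clear mucus, and defects in many of these genes cause primary ciliary dyskinesia. The genes for these proteins are switched on during ciliogenesis by transcription factors of the forkhead (Foxj1) and RFX families, which bind forkhead sites and X-box sites.

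The promoters that held an X-box are shown because they are the members with the fullest match to a site of the RFX family. RefSeq promoters (GRCm38.p6, 250 bases before to 50 bases after the start of the gene) were matched by gene identifier, or else by symbol, to 43 of the 52 members, and both strands were searched for 3 motifs. A gene was counted where any of its promoters held the motif. The X-box consensus was found in 6 of the 43 members (14.0%) and in 2.49% of all 27025 genes with a promoter. The shorter RFX core GTTGCC, which can lie inside an X-box, was found in 15 members (34.9%) and in 14.1% of all genes with a promoter. Dnah7a, Dnah7b and Dnah7c, gene copies with similar promoters, each count among these 15. The forkhead site GTAAACA was found in 3 members (6.98%) and in 4.05% of all genes with a promoter. The promoters are written 5′ to 3′ on the strand of the gene, and capitals mark matches to any of the 3 motifs on either strand.

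Cfap44 (chr16:44394549-44394848, plus strand): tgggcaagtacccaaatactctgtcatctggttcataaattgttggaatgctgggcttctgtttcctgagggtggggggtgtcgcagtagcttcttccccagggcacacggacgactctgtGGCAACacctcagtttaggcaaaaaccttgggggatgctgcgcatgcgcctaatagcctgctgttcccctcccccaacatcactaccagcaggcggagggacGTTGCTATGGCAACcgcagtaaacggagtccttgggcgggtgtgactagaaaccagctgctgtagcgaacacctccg

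Cfap61 (chr2:145934534-145934833, plus strand): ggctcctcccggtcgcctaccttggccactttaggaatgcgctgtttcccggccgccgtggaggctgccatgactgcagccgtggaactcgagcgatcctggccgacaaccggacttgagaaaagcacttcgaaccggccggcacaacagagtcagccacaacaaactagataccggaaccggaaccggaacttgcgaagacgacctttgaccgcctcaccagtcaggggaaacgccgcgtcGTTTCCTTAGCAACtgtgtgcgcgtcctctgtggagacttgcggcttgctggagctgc

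Cfap206 (chr4:34730157-34730456, minus strand): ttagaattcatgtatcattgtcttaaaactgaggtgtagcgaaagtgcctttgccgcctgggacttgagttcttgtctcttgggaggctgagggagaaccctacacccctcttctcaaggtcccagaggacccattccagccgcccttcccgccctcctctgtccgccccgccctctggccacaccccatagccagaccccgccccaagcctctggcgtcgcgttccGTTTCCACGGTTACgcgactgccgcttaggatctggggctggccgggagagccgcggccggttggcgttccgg

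Cfap45 (chr1:172520880-172521179, plus strand): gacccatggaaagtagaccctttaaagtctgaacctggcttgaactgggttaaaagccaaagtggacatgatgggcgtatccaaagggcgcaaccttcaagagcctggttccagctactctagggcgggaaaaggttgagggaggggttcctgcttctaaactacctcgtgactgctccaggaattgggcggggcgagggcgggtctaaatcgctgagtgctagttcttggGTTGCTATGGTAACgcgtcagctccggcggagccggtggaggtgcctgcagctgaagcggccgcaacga

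Cfap298 (chr16:90934800-90935099, minus strand): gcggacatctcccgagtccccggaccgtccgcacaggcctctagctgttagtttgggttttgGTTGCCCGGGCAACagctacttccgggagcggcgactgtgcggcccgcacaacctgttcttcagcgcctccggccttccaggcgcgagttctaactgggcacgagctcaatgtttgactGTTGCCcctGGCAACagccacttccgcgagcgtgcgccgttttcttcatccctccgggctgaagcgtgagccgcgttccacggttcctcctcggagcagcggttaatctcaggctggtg

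Dnah17 (chr11:118129170-118129469, minus strand): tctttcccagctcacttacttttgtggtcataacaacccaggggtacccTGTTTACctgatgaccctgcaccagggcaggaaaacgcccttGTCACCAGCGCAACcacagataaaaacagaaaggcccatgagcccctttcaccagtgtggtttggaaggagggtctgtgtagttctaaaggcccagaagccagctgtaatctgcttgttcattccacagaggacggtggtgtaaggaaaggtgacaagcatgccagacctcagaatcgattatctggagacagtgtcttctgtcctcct

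Of these 6 genes, all but Dnah17 were called higher in ciliated than in the other named barcodes, as described below. Cfap44 carried 2 and Cfap298 carried 4 RFX cores, and Dnah17 carried the only forkhead match among the 6. A match is a description of these letters and not evidence that a factor binds there.

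For each mouse, the authors deposited the count of unique molecular identifiers (UMIs, 1 for each captured transcript) of every gene in every barcode, before nuclei were selected. The WT mice had 125261739 and 146133943 UMIs and the Tg mice 128645180 and 182014706, and 26933, 38543, 25269 and 44000 barcodes, in the same order, held at least 1500 UMIs. A barcode was given to 1 of 17 classes where the UMIs of that class's markers alone exceeded what the empty droplets of the same mouse (barcodes of 300 to 800 UMIs, which hold RNA set free from broken cells) would give. No member was used as a marker, although some of the ciliated markers were other genes of the axoneme. This named 4139, 4792, 6486 and 8738 barcodes, and most others carried too few marker UMIs to be told from empty droplets. Any pair of libraries shared between 176 and 475 of their barcodes, at most 1.3% of either.

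There were 381 and 342 ciliated barcodes in WT and 1021 and 946 in Tg mice. All 13 ciliated markers stood above the empty droplets in every mouse, and together they made 7509, 5794, 7858 and 6488 CPM (UMIs relative to all UMIs of the same barcodes, on the usual CPM scale) in ciliated barcodes against 1208, 506, 1399 and 614 CPM in empty droplets, in the order WT replicates 1 and 2 and Tg replicates 1 and 2. Since these markers named the class, this excess describes the rule and is no test of it. Foxj1, the transcription factor that defines motile ciliated cells, and Hydin, a part of the central pair, are among them. The median ciliated barcode had 4821, 4466, 3697 and 4520 UMIs. Another 45, 55, 112 and 147 barcodes passed for ciliated and for a further class, and were left out as mixed. Ciliated barcodes made 9.21% and 7.14% of the named barcodes in WT mice (8.17% ± 1.46, SD, n = 2) and 15.7% and 10.8% in Tg mice (13.3% ± 3.48, SD, n = 2). The Tg values were above the WT values, and the exact permutation test gave p = 0.33, two-sided, which is the smallest p that 2 mice against 2 allow. With markers of alveolar type 2 and secretory cells that leave out secreted transcripts, the shares were 8.85% and 7.17% in WT mice and 11.2% and 8.82% in Tg mice, and the genotypes overlapped. With ciliated markers free of axonemal genes such as Hydin, 239 and 227 barcodes in WT and 518 and 683 in Tg mice were named ciliated.

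The members together made 2.70% and 1.97% of all UMIs of ciliated barcodes in WT mice and 2.38% and 2.02% in Tg mice. As a level, this was 26998, 19705, 23784 and 20223 CPM (mean 22678 ± 3404, SD, n = 4 mice). In all other named barcodes together, the level was 1505, 760.0, 942 and 708 CPM, and in the empty droplets 3489, 1573, 1832 and 1333 CPM. The members were thus 17.9, 25.9, 25.3 and 28.6 times as abundant in ciliated barcodes as in the other named ones, and 7.74, 12.5, 13 and 15.2 times as abundant as in the empty droplets. In the other named barcodes their level was between 0.43 and 0.53 of that in the empty droplets, below it in every mouse. Since free RNA enters every droplet, the share of it in ciliated barcodes was estimated from alveolar type 2 markers, at 32.3%, 36.2%, 24.4% and 28.1%, and with it subtracted the members stood at 37976, 29459, 30642 and 27308 CPM. In empty droplets these markers stood at 6674 and 8493 CPM in WT and at 21835 and 20739 CPM in Tg mice. Other marker lists were not tried for this estimate and may give other shares.

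Within single barcodes the separation was as wide. The median ciliated barcode held 113, 85, 85 and 84 UMIs of members, against 5, 4, 2 and 2 in the other named barcodes, whose median depths were 3386, 4498, 2877 and 3367 UMIs. Thinned to 1500 UMIs each, a ciliated barcode held 18.4, 15.6, 19 and 16.8 different members at the median, and an other named barcode 2.09, 1.12, 1.15 and 0.966. Without thinning these medians were 29, 27, 28 and 28 members against 5, 3, 2 and 2. No ciliated barcode lacked a UMI of every member, which, at 0 of 381, 342, 1021 and 946 barcodes, allows a share of up to 0.787%, 0.877%, 0.294% and 0.317%. These limits cover counting error only. Among the other named barcodes, 44, 187, 534 and 752 (1.17% to 9.77% of them) held no UMI of a member, so that a single UMI does not tell the classes apart.

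**Figure D1:**
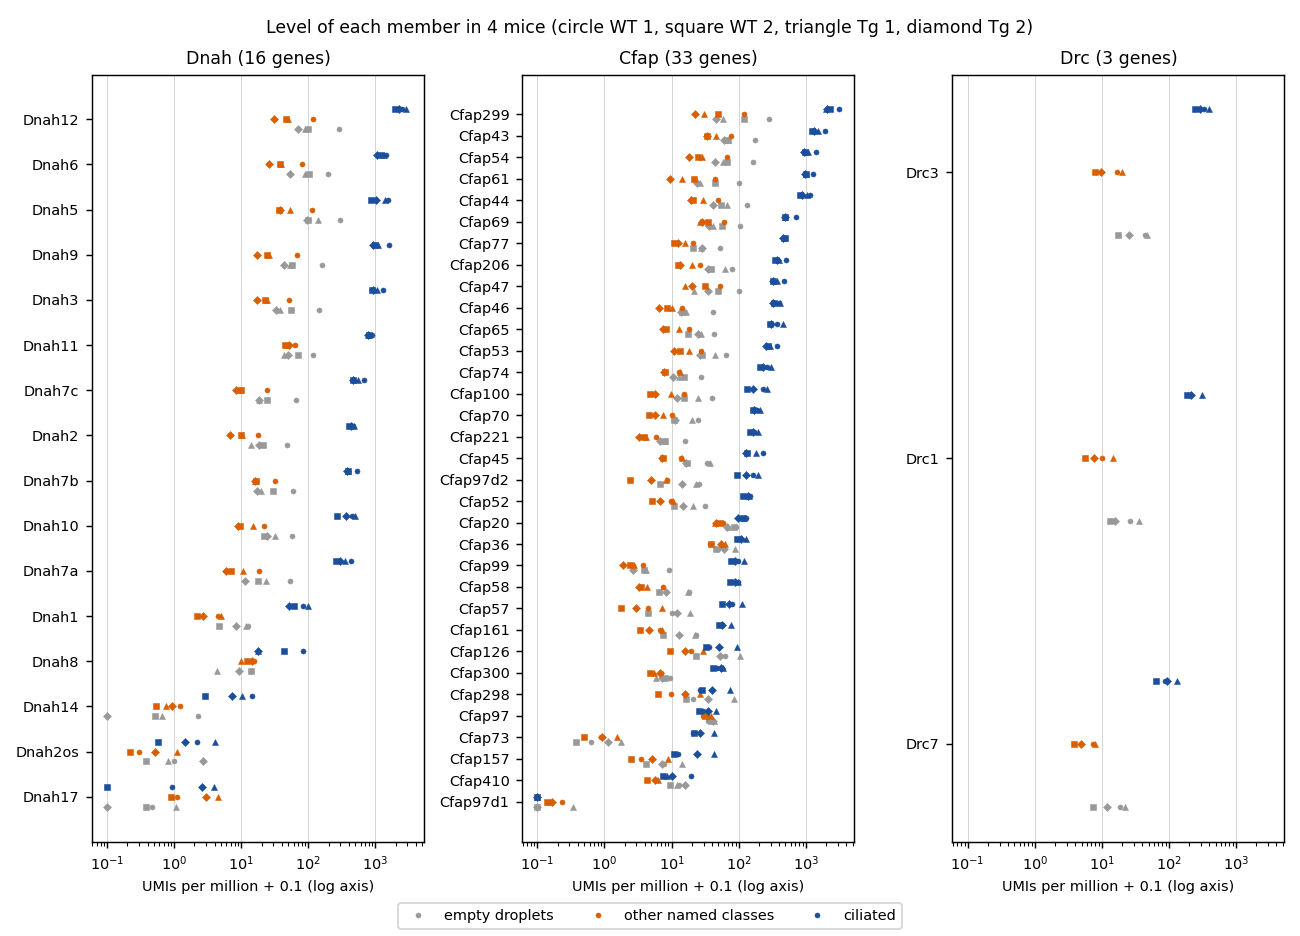
Level of each of the 52 members (CPM plus 0.1, log axis) in ciliated barcodes (blue), all other named barcodes (orange) and empty droplets (grey), with 1 point per mouse and the members of each family ordered by their mean level in ciliated barcodes. For 44 members the 4 blue points lie above all orange and grey ones, as for Dnah12 (2494, 1985, 2841 and 2238 CPM in ciliated barcodes), while Cfap97, Cfap97d1, Cfap126, Cfap157, Cfap298, Cfap410, Dnah17 and Dnah2os overlap. The share of all genes that separate in this way was not computed.

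The outer arm heavy chains were high in ciliated barcodes of every mouse, apart from those known from sperm. Dnah5 (chr15:28203752-28472052 of GRCm38), which encodes a heavy chain of the outer arm whose loss is a frequent cause of primary ciliary dyskinesia, stood at 1544 and 855 CPM in WT and 1368 and 1025 CPM in Tg mice, against 115, 35.9, 53 and 37.3 CPM in the other named barcodes, in the same order, and 292, 99.7, 140.3 and 95.9 CPM in empty droplets. Dnah9 (chr11:65831282-66168551), its partner heavy chain in the distal part of the cilium, stood at 1602 and 975 CPM in WT and 1078 and 933 CPM in Tg mice, against 66.4, 23.8, 25.8 and 17 CPM in the other named barcodes. Dnah11 (chr12:117877982-118199043), the partner in the proximal part, stood at 874 and 806 CPM in WT and 779.8 and 775 CPM in Tg mice, against 63.3, 45.3, 48.7 and 51.9 CPM. For these 3 genes the lowest ciliated mouse was above the highest value of the other named barcodes and of the empty droplets. Ciliated barcodes exceeded the other named ones with a log2 fold change of 4.58 (SE 0.18, adjusted p = 1.5e-08) for Dnah5, a log2 fold change of 5.40 (SE 0.20, adjusted p = 8.7e-09) for Dnah9 and a log2 fold change of 4.09 (SE 0.10, adjusted p = 2.4e-09) for Dnah11, by edgeR with each mouse as a block. At 1500 UMIs a barcode, Dnah5 was detected in 83.1, 64, 80.4 and 70.9% of ciliated and 17.5, 6.65, 8.01 and 6.15% of other named barcodes, and Dnah11 in 67.3, 62, 66.2 and 65.7% and 8.5, 6.81, 6.2 and 6.8%. Without thinning, Dnah5 was detected in 96.9, 88.3, 94.6 and 92.3% and 35.6, 17.5, 14.9 and 13.4%, and Dnah11 in 90.6, 86, 90.2 and 92% and 18.7, 17.9, 12 and 14.7%.

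Dnah8 (chr17:30624354-30877365) and Dnah17 (chr11:118021723-118130634), which encode the outer arm heavy chains of the sperm flagellum, had few UMIs. Dnah8 stood at 82.6 and 43 CPM in WT and 17.9 and 17.6 CPM in Tg mice in ciliated barcodes, and at 15.2, 12, 9.64 and 14.6 CPM in the other named barcodes, so that the genotypes separated in ciliated barcodes and both Tg mice came close to the other classes. Its excess over the other named barcodes was a log2 fold change of 1.52 (SE 0.29, adjusted p = 0.00159). Dnah17 had 2, 0, 18 and 13 UMIs in ciliated barcodes, or 0.834, 0, 3.75 and 2.46 CPM, against 0.984, 0.806, 4.41 and 2.86 CPM in the other named barcodes. It was not called in either direction, with a log2 fold change of −0.20 (SE 0.33, adjusted p = 0.634). These low counts limit what can be said of Dnah17 in any single mouse.

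Among the inner arm heavy chains, Dnah12 (chr14:26693274-26891703), which encodes a heavy chain of a single-headed inner arm, had the most UMIs of all Dnah genes, with 2494 and 1985 CPM in WT and 2841 and 2238 CPM in Tg mice in ciliated barcodes, 116, 45.7, 49 and 30.8 CPM in the other named barcodes and 284, 98, 87.5 and 69.3 CPM in empty droplets. Every ciliated value was above every other value, and the excess over the other named barcodes was a log2 fold change of 5.61 (SE 0.28, adjusted p = 8.1e-08). Thinned to 1500 UMIs, 93.4, 82.4, 94.5 and 89.1% of ciliated and 17.3, 7.91, 6.72 and 4.96% of other named barcodes held a UMI of Dnah12, and unthinned the shares were 98.7, 94.2, 99 and 97.9% and 34.7, 21.1, 12.2 and 11.1%. Dnah6 and Dnah3, inner arm heavy chains as well, reached 1447 and 1230 CPM in WT and 1352 and 1066 CPM in Tg mice and 1278 and 876 CPM in WT and 1041 and 925 CPM in Tg mice, with log2 fold changes of 5.06 and 5.41. Dnah2 and Dnah10 form the double-headed inner arm together. Dnah2 stood at 461 and 403 CPM in WT and 474 and 429 CPM in Tg mice and Dnah10 at 445 and 271 CPM in WT and 500.2 and 358 CPM in Tg mice, with log2 fold changes of 5.54 and 5.03, and for both genes the ciliated mice lay above all values of the other named barcodes and the empty droplets.

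Mice carry the inner arm gene known as DNAH7 in man as the neighbouring copies Dnah7b (chr1:46066315-46373546) and Dnah7c (chr1:46425592-46807476) on the plus strand and a more distant copy, Dnah7a (chr1:53397006-53706784), on the minus strand. Their levels were 664 and 462 CPM in WT and 556 and 469 CPM in Tg mice for Dnah7c, 533 and 387 CPM in WT and 388 and 373 CPM in Tg mice for Dnah7b and 435 and 259.6 CPM in WT and 351 and 298 CPM in Tg mice for Dnah7a. All 3 were called higher in ciliated barcodes, with log2 fold changes of 5.64, 4.56 and 5.25. Because the copies are near-identical, how the reads were split between them is uncertain. Dnah1, another inner arm heavy chain, stood at 84.2 and 61.1 CPM in WT and 100.1 and 50.8 CPM in Tg mice and was called higher with a log2 fold change of 4.54 (SE 0.13, adjusted p = 3.1e-09). Dnah14 (chr1:181576559-181815774) was rare, with 34, 6, 48 and 38 UMIs, or 14.2, 2.78, 10.0 and 7.2 CPM, in ciliated barcodes, and was called higher with a log2 fold change of 3.54 (SE 0.26, adjusted p = 1.8e-06). Dnah2os, an RNA antisense to Dnah2 and lying inside it (chr11:69448548-69453676), had 5, 1, 19 and 7 UMIs. Its log2 fold change of 2.21 rests on these few UMIs. Whether strand was used in counting is not given in the sources used here, so that its UMIs may stem from Dnah2.

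The 10 Cfap genes with the most UMIs in ciliated barcodes were Cfap299, Cfap43, Cfap54, Cfap61, Cfap44, Cfap69, Cfap77, Cfap206, Cfap46 and Cfap47. Cfap299 (chr5:98329304-98802047) stood at 3155 and 2333 CPM in WT and 2039 and 2105 CPM in Tg mice, against 119, 48.7, 30.5 and 22.4 CPM in the other named barcodes and 285, 121, 58 and 46.7 CPM in empty droplets. Its excess was a log2 fold change of 5.85 (SE 0.29, adjusted p = 7.3e-08), and at 1500 UMIs it was detected in 94.1, 87.1, 89.7 and 89.6% of ciliated and 16.7, 8.62, 3.71 and 3.65% of other named barcodes. Without thinning, these shares were 97.9, 94.4, 97.2 and 98.4% and 33.6, 22.2, 6.86 and 7.89%. Cfap43 (chr19:47736857-47919287) and Cfap44 (chr16:44394796-44482428) encode the tether of the double-headed inner arm. Cfap43 stood at 1917 and 1228 CPM in WT and 1504 and 1344 CPM in Tg mice and Cfap44 at 1175 and 819 CPM in WT and 1035 and 887 CPM in Tg mice, with log2 fold changes of 5.17 and 5.26, so that both parts of the tether had a similar excess.

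Cfap61 (chr2:145934784-146215039), which encodes a protein at the base of the radial spokes, stood at 1291 and 1019.9 CPM in WT and 1019 and 969 CPM in Tg mice and had the largest fold change of all members by edgeR, a log2 fold change of 5.93 (SE 0.28, adjusted p = 5.3e-08). In plain CPM its ratio to the other named barcodes was below that of Cfap221 in WT replicate 1 (29.2 against 29.96). It was below that of Cfap73 in WT replicate 2 (48.0 against 53.96). Cfap206, also a protein of the spoke base, stood at 505 and 355 CPM in WT and 399.7 and 378 CPM in Tg mice, its log2 fold change being 4.68. Cfap54, Cfap46 and Cfap47 encode projections of the central pair. They stood at 1415 and 985 CPM in WT and 1071 and 949 CPM in Tg mice, at 399 and 341 CPM in WT and 414 and 321 CPM in Tg mice and at 471 and 327 CPM in WT and 375 and 326 CPM in Tg mice, with log2 fold changes of 5.29, 5.41 and 3.91. Cfap69 was at 709.7 and 485 CPM in WT and 490 and 484 CPM in Tg mice and Cfap77 at 489 and 496 CPM in WT and 476 and 463 CPM in Tg mice, with log2 fold changes of 4.03 and 5.19. In each of these genes the lowest ciliated mouse was more than 3 times the highest value of the other named barcodes and of the empty droplets.

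All 3 genes of the regulatory complex were higher in ciliated barcodes. Drc1 (chr5:30281388-30366695), which encodes the scaffold of the complex, stood at 194 and 185 CPM in WT and 317 and 214 CPM in Tg mice, against 10.1, 5.48, 14.6 and 7.49 CPM in the other named barcodes and 26.3, 13.2, 35.7 and 15.9 CPM in empty droplets. Drc3 (chr11:60353329-60394341) stood at 337 and 247 CPM in WT and 391 and 293 CPM in Tg mice and Drc7 (chr8:95055103-95078141) at 86.7 and 64.8 CPM in WT and 132 and 92.6 CPM in Tg mice. All 3 were called higher in ciliated barcodes, Drc1 with a log2 fold change of 4.78 (SE 0.15, adjusted p = 3.7e-09), Drc3 with a log2 fold change of 4.75 and Drc7 with 4.14. Drc1 was detected in 23.8, 22.1, 37.1 and 27.8% of ciliated and 1.65, 1.02, 2.46 and 1.27% of other named barcodes at 1500 UMIs, and in 60.1, 53.5, 67.3 and 60.8% and 3.91, 2.92, 4.57 and 2.87% without thinning.

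Over all members, 49 of the 51 tested were higher in ciliated than in the other named barcodes, and 0 were lower, by edgeR (adjusted p under 0.05) as by DESeq2 and also at an unadjusted p under 0.05. Of the 17563 genes tested, 25.6% were called higher and 25.4% lower. The members' median log2 fold change was 4.68, and that of all genes was −0.07. By family, 15 of 16 Dnah genes (median 4.80), 31 of 32 tested Cfap genes (median 4.61) and 3 of 3 Drc genes (median 4.75) were called higher. The fold change was above 3 on the log2 scale in 41 members, above 4 in 37 and above 5 in 19, of which 8 were Dnah and 11 Cfap genes. In 49 members the CPM of ciliated barcodes was above that of the other named barcodes in 4 of 4 mice, and in 45 it was above that of the empty droplets in 4 of 4 mice. For these counts by mouse, the share of all genes was not computed.

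**Figure D2:**
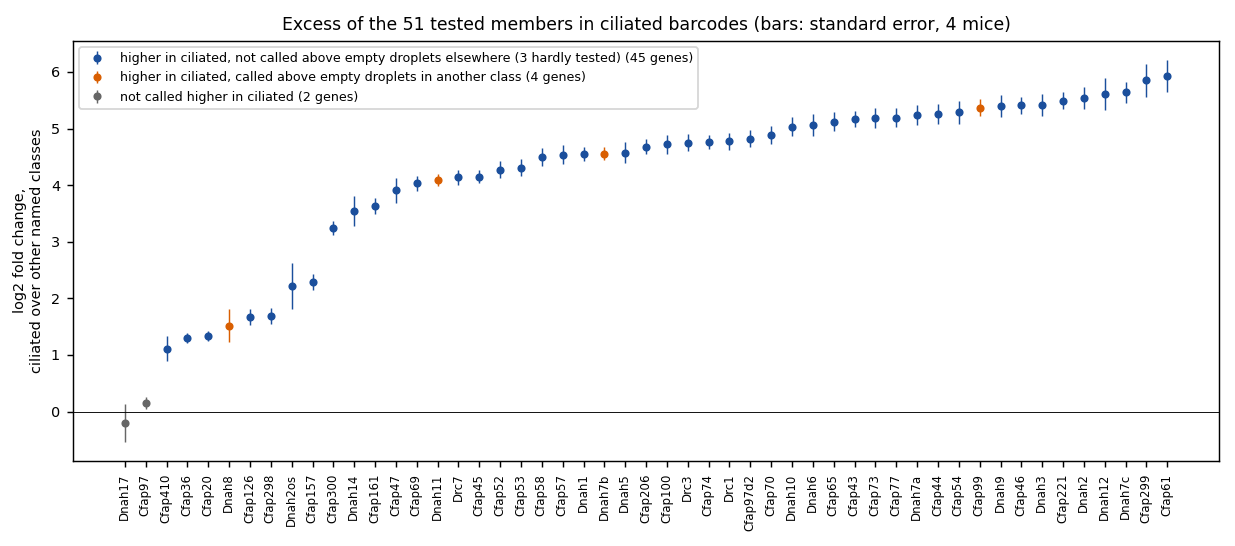
Log2 fold change of ciliated over other named barcodes for the 51 tested members, in rising order. Bars give the standard error from the edgeR fit to 4 mice. Blue, 45 members that were not called above the empty droplets in another class, 3 of which (Dnah14, Cfap73 and Dnah2os) were tested in 1 class or none; orange, 4 members that were called above them in another class; grey, 2 members not called higher. The values run from −0.20 for Dnah17 to 5.93 for Cfap61.

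Of the members with the smallest excess, Cfap97 (chr8:46151771-46195590) was not called in either direction. It stood at 29.2 and 25.5 CPM in WT and 45.5 and 34.5 CPM in Tg mice in ciliated barcodes, 29.1, 31.4, 38 and 34.2 CPM in the other named barcodes and 35.1, 39.2, 43.1 and 42.1 CPM in empty droplets, with a log2 fold change of 0.14 (SE 0.11, adjusted p = 0.284). The next in order are named after their values were seen. Cfap410, linked to the base of primary cilia, had a log2 fold change of 1.11, Cfap36 of 1.30 and Cfap20, a protein inside the doublet wall that is also found at centrioles, of 1.33. All 3 were called higher in ciliated barcodes, where Cfap20 stood at 127 and 116 CPM in WT and 121 and 97.9 CPM in Tg mice against 58, 52.2, 44.4 and 46.7 CPM in the other named barcodes. Cfap410 stood at 19.2, 7.4, 8.55 and 10.2 CPM in ciliated barcodes and at 12.8, 9.24, 11.9 and 15.9 CPM in empty droplets, which were higher in 3 of 4 mice. Cfap126 and Cfap298 were called higher than in the other named barcodes with 1.68 and 1.69, but Cfap126 was at 36.7 and 32.9 CPM in WT and 96.1 and 50.6 CPM in Tg mice in ciliated barcodes and at 61.9, 22.8, 105 and 52.3 CPM in empty droplets, so that 3 of 4 mice had the higher value in the empty droplets. Cfap97d1 had no UMI in ciliated barcodes of any mouse and was not tested. A count of 0 there allows at most 1.25, 1.39, 0.626 and 0.568 CPM, which covers counting error only.

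UMIs per kilobase of gene were used to compare levels between members, since nuclear RNA holds introns and the study counted them. On that scale Dnah12 was first, with 12 ± 1.84 CPM per kilobase (SD, n = 4 mice), followed by Cfap44 with 11.2 ± 1.81, Cfap65, named for its place in this order, with 10.6 ± 2.3 and Cfap206 with 9.83 ± 1.6. Dnah12 was above Cfap65 and Cfap206 in 4 of 4 mice and above Cfap44 in 3, and Cfap65 was above Cfap206 in 2. Next came Cfap43, with 8.21 ± 1.65. Cfap299, which had the most CPM in both WT mice and came after Dnah12 in both Tg mice, was at 5.09 ± 1.09 CPM per kilobase, since its gene spans 473 kb, of which 0.306% is exonic. Of the dynein heavy chains, Dnah6 had 6.24 ± 0.806, Dnah3 5.97 ± 1.04, Dnah5 4.47 ± 1.17, Dnah10 3.6 ± 0.919, Dnah2 3.44 ± 0.25, Dnah9 3.4 ± 0.918 and Dnah11 2.52 ± 0.142 CPM per kilobase. The outer arm gene Dnah5 was above Dnah9, Dnah10 and Dnah2 in 4 of 4 mice, while Dnah6 was above Dnah3, and Dnah10 above Dnah2 and Dnah9, in only 2 of 4. Lower still were Dnah7c (1.41 ± 0.247), Dnah7b (1.37 ± 0.246), Dnah1 (1.17 ± 0.351) and Dnah7a (1.08 ± 0.245), and Dnah8, Dnah14 and Dnah17 closed the order with 0.159, 0.0357 and 0.0162.

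The annotated members lie on 18 chromosomes, and long genes had more UMIs. Across 49 members, the logarithm of gene length and the mean CPM in ciliated barcodes had a Pearson r of 0.81, and length and the log2 ratio of ciliated barcodes to empty droplets had 0.60. The genes share their libraries and are not independent replicates. For the excess over the other named barcodes, r with length was 0.48 across 51 members and −0.0036 across 17549 genes. Of the 52 members, 27 overlap another annotated gene, 4 of them on the same strand, where reads from shared stretches may be counted for either gene. For overlaps on opposite strands this depends on whether strand was used in counting, which the sources used here do not give.

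Outside ciliated barcodes, the members mostly stood below the free RNA of the empty droplets. In classes of at least 20 barcodes, their summed level was between 33.5% and 82.8% of that of the empty droplets in WT replicate 1, between 37.8% and 61.8% in WT replicate 2 and between 44.4% and 78.6% in Tg replicate 2. In Tg replicate 1 it was between 41.1% and 64.8% in the classes other than cardiac muscle, and at 147% in cardiac muscle, which held 26 barcodes there, 22 in Tg replicate 2 (78.6%) and under 20 in both WT mice. Against the empty droplets, 11 classes with at least 20 barcodes in every mouse were tested: alveolar type 1, endothelial, lymphatic endothelial, fibroblast, pericyte, mesothelial, alveolar macrophage, monocyte or interstitial macrophage, dendritic, T or NK, and B. Of 516 pairs of member and class, 411 were called lower than in the empty droplets and 10 higher, and 47 members were lower in at least 1 class. Of all genes tested, the share called lower was 35.3% in alveolar type 1, 29% in endothelial, 22.8% in lymphatic endothelial, 29.1% in fibroblast, 16.3% in pericyte, 33% in mesothelial, 31% in alveolar macrophage, 22.3% in monocyte or interstitial macrophage, 25.6% in dendritic, 23.6% in T or NK and 24% in B barcodes. The median log2 fold change of the members ran from −0.84 in T or NK to −1.33 in monocytes or interstitial macrophages. A member was called confined to ciliated barcodes where it was higher there than in the other named barcodes and above the empty droplets in no other class. Of the members tested against the empty droplets in at least 10 of the 11 classes, 42 met this, namely 10 Dnah, 29 Cfap and 3 Drc genes, and 39 of these 42 also stood above their own empty droplets in ciliated barcodes of 4 of 4 mice. The exceptions were Cfap126, Cfap410 and Cfap298. Another 3 members were higher in ciliated barcodes and were called above the empty droplets nowhere, but had too few UMIs for most of these tests, since Dnah2os was tested in 1 class and Dnah14 and Cfap73 in none. With them the count is 45. The share of all genes that meet the same conditions was not computed. A member with RNA in another class below the level of the empty droplets can also meet them. The rule therefore does not show absence elsewhere. Cfap97, not called higher in ciliated barcodes, was called above the empty droplets in none of the 11 classes. Cfap36, which met the rule, stood in the other named barcodes at 76.5%, 86.3%, 70.9% and 89.9% of its empty droplets. Alveolar type 2 and airway secretory barcodes were not tested, since Tg replicate 2 held 4 of the first and Tg replicate 1 held 18 of the second.

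The members above the empty droplets elsewhere were Dnah8, Dnah11, Dnah17, Dnah7b and Cfap99. The background was 17.8% of genes called higher in T or NK, 21.7% in endothelial, 21.3% in B, 26.5% in alveolar type 1, 22.1% in fibroblast and 27.6% in mesothelial barcodes, so that 1 or 2 members a class is a small share. The clearest was Dnah8 in T or NK barcodes, where it stood at 72.3, 53.9, 41.1 and 45.5 CPM (62, 101, 48 and 263 UMIs) against 13.9, 14, 4.21 and 9.23 CPM in empty droplets, with a log2 fold change of 2.35 (SE 0.19, adjusted p = 2.8e-06). In T or NK barcodes every mouse was above the highest empty droplet value, and 3 of 4 mice, all but WT replicate 1, were above their own ciliated barcodes, among them both Tg mice, which were above the 17.9 and 17.6 CPM of their ciliated barcodes. Dnah8 was also higher in endothelial barcodes, at 28.5, 19, 14.8 and 14.3 CPM with 0.99 (SE 0.20, adjusted p = 0.00127), and in B barcodes, at 50.3, 17.7, 26.4 and 14.5 CPM with 1.25 (SE 0.30, adjusted p = 0.00183). Within a mouse it was above its own empty droplets in all 3 classes. Dnah8 overlaps 4 genes on the opposite strand, among them Glo1, a broadly expressed gene of methylglyoxal detoxification.

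The other members gave smaller or less even values. Cfap99 in fibroblast barcodes was at 12.3, 8.72, 17.1 and 11.3 CPM against 9.18, 3.78, 4.05 and 2.57 CPM in empty droplets, with 1.45 (SE 0.39, adjusted p = 0.00629), from 10, 6, 12 and 6 UMIs, and each mouse was above its own empty droplets. Dnah7b in mesothelial barcodes was at 53.4, 36.9, 32.7 and 33 CPM against 58.7, 29.1, 19.4 and 16.9 CPM, with 0.55 (SE 0.17, adjusted p = 0.00967). In plain CPM, WT replicate 1 was below its empty droplets for Dnah7b, and the other 3 mice were above. Dnah11 in alveolar type 1 barcodes was at 93, 68.3, 66 and 85.6 CPM against 117, 69.7, 43.2 and 49.3 CPM, with 0.51 (SE 0.17, adjusted p = 0.0221). Here both WT mice were below their empty droplets in plain CPM and both Tg mice above. Dnah17 had 1, 5, 22 and 15 UMIs in alveolar type 1, 3, 1, 17 and 23 in endothelial, 0, 2, 12 and 18 in mesothelial and 5, 1, 7 and 19 in T or NK barcodes, against 2, 2, 12 and 0 in empty droplets. It was called in these 4 classes, with log2 fold changes from 1.77 in mesothelial to 2.71 in T or NK barcodes, which depend on the prior count. With empty droplets of 100 to 300 UMIs in place of 300 to 800, 0 members were called above them in another class by edgeR (2 at an unadjusted p under 0.05), and with no mouse block 1 was.

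**Figure D3:**
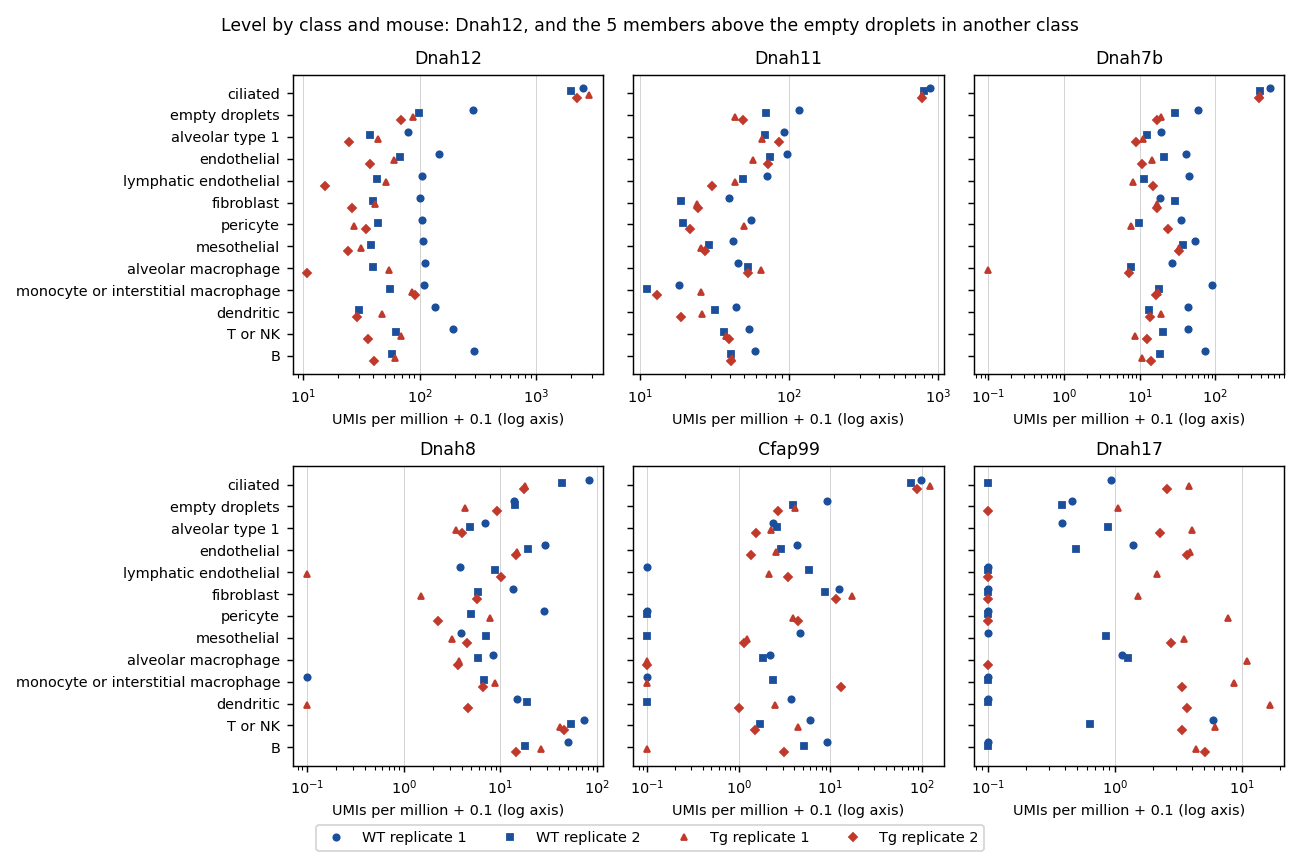
Level (CPM plus 0.1, log axis) by class and mouse for Dnah12 and for the 5 members called above the empty droplets in another class (WT mice blue, Tg mice red, 1 point per mouse). Dnah12 separates ciliated barcodes from every other set, Dnah8 is higher in T or NK than in ciliated barcodes in 3 of 4 mice, and Dnah17 has few UMIs in any set.

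Each class was also set against the other named barcodes in place of the empty droplets, and 28 members were called higher in at least 1 class other than ciliated. The share of all genes called higher was 18.9% in alveolar type 1, 13.2% in endothelial, 4.67% in lymphatic endothelial, 9.82% in fibroblast, 3.88% in pericyte, 19% in mesothelial, 15.6% in alveolar macrophage, 6.78% in monocyte or interstitial macrophage, 10.2% in dendritic, 12.3% in T or NK and 8.96% in B barcodes. The largest log2 fold changes among members with over 5 UMIs in every mouse were Cfap99 in fibroblast barcodes, at 2.53 (SE 0.39, adjusted p = 2.5e-05), Dnah8 in T or NK barcodes, at 2.48 (SE 0.12, adjusted p = 2.8e-10), Dnah7b in mesothelial barcodes, at 1.43 (SE 0.13, adjusted p = 6.7e-06), Dnah11 in alveolar type 1 barcodes, at 1.16 (SE 0.074, adjusted p = 3.3e-06), and Cfap300 in mesothelial barcodes, at 1.12 (SE 0.18, adjusted p = 0.00046). Most calls were in T or NK and in endothelial barcodes, with 12 members each. Among them, in T or NK barcodes, were Dnah12 at 0.41 (SE 0.10, adjusted p = 0.00394) and Dnah5 at 0.48 (SE 0.10, adjusted p = 0.00124), and in endothelial barcodes Dnah12 at 0.44 (SE 0.075, adjusted p = 0.00199) and Dnah5 at 0.25 (SE 0.080, adjusted p = 0.0447). The summed level of the members was at 67.7%, 61.1%, 64.8% and 61.6% of the empty droplets in T or NK barcodes and at 33.5%, 42.6%, 44.5% and 46.7% in alveolar type 1 barcodes, and the part of free RNA in these calls was not tested. Dnah12 and Dnah5 were below the empty droplets in both classes, with log2 fold changes of −0.73 (SE 0.15, adjusted p = 0.0023) and −0.98 (SE 0.17, adjusted p = 0.00068) in T or NK and of −0.76 (SE 0.14, adjusted p = 0.00059) and −1.20 (SE 0.15, adjusted p = 2.7e-05) in endothelial barcodes.

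The ratio of each member to the other members was also set beside that in the empty droplets. In a description chosen after the data were seen, and with no test, a member was listed where its ratio to the other members of the class was at least 1.5 times that in the empty droplets in 4 of 4 mice, with at least 3 UMIs in the class and in the empty droplets of each mouse and at least 20 UMIs of members in the class. For Dnah8 this was between 6.61 and 15.6 times in T or NK, between 2.29 and 11.1 in B and between 2.23 and 6.11 in endothelial barcodes. Dnah11 was between 2.45 and 4.16 times in alveolar type 1 and between 1.69 and 2.74 in endothelial barcodes, Dnah7b between 2.37 and 4.11 in mesothelial, and Cfap99 between 3.77 and 9.88 in fibroblast barcodes. Cfap300, which serves the assembly of dynein arms, was listed in mesothelial (between 1.91 and 3.90 times) and fibroblast barcodes (between 1.80 and 3.52). With the marker lists free of secreted transcripts, alveolar type 2 barcodes had Cfap97 (between 2.19 and 2.70 times), Cfap69 (between 1.85 and 3.06), Cfap47 (between 1.95 and 2.89) and Cfap20 (between 1.92 and 2.34), and airway secretory barcodes had Cfap47 (between 1.60 and 3.54). The remaining pairs listed were Cfap97 in alveolar type 1 (between 1.71 and 2.21) and dendritic barcodes (between 1.95 and 3.46), Cfap36 in mesothelial (between 1.72 and 2.52) and airway secretory barcodes (between 1.54 and 2.20), Cfap20 in airway secretory (between 1.56 and 1.99), Cfap74 (between 2.19 and 2.96) and Cfap47 (between 1.51 and 1.96) in pericyte, and Cfap157 in alveolar macrophage barcodes (between 1.51 and 5.70). A pair listed here need not stand above the empty droplets, as for Cfap97 in alveolar type 1 barcodes, which had a log2 fold change of −0.03 against them, and the list was made with 1 choice of empty droplets. With the marker lists free of secreted transcripts, Dnah17 (2.55 in airway secretory, with a background of 26.8%, and 3.02 in alveolar type 2, with 27.4%, on the log2 scale) and Cfap97 (0.35 in alveolar type 2, adjusted p = 0.033) were called above the empty droplets by edgeR.

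The other genes of the axoneme and of ciliogenesis, taken from lists by function, were mostly higher in ciliated barcodes, where 94 of 101 tested were called higher than in the other named barcodes, beside the same background of 25.6%. With cytoplasmic dynein, which was taken for comparison, it was 97 of 111. Of the dynein intermediate and light chains, 11 of 11 were higher (median log2 fold change 3.48), from Dnaic1 (5.31) and Wdr63 (5.24) down to Dnal4 (1.01). The outer arm docking complex had 5 of 5 (median 4.62, Armc4 at 5.31), the radial spokes 11 of 11 (median 3.001, Rsph14 at 5.13), and the molecular ruler with the remaining partners of the regulatory complex 9 of 9 (median 4.36, Fbxl13 at 5.35). The central apparatus had 10 of 11 (median 5.01, Ttc29 at 5.58, and Spag6 not called at 0.73) and the dynein assembly factors 12 of 13 (median 3.08, Lrrc6 at 5.38, and Pih1d1 not called at −0.15). Smaller values were found for intraflagellar transport, which primary cilia use as well, with 20 of 22 (median 1.95, Traf3ip1 at 3.74 and Ttc21b at 0.02), for ciliogenesis transcription factors with 9 of 10 (median 2.63, Trp73 at 5.20 and E2f4 at 0.17), and for the deuterosome, which multiplies centrioles, with 7 of 9 (median 0.96, Deup1 at 3.98 and Cep152 at 0.31). Cytoplasmic dynein, the motor of all cells, had 3 of 10 higher and 2 lower (median 0.06, Dync1i1 at 3.35 and Dync1li1 at −0.33).

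Between the genotypes, 1 member was called in ciliated barcodes, and with 2 mice against 2 the others are not shown to be alike. Of 49 tested, 0 were higher in Tg mice by edgeR (3 at an unadjusted p under 0.05) and 1 was lower, Dnah8, against 4.1% of 14284 genes called higher and 0.322% lower. DESeq2 called 1 member as well. The members' median log2 fold change was 0.02, as was that of all genes. Both Tg mice were above both WT mice in 9 members and below them in 5, where 31.3% and 22.6% of all genes tested did not overlap in these directions. Dnah8 stood at 82.6 and 43 CPM in WT and 17.9 and 17.6 CPM in Tg mice, where the log2 fold change was −1.86 (SE 0.35, adjusted p = 0.0285), from 198, 93, 86 and 93 UMIs. The WT mice lay farther apart in CPM than WT replicate 2 and the Tg mice. In empty droplets the log2 fold change of Dnah8 was −0.96 (adjusted p = 0.101). It was not called with free RNA subtracted, where the log2 fold change was −2.10 (SE 0.38, adjusted p = 0.143) and 1 gene of all was called, or with ciliated markers free of axonemal genes, where Dnah8 was at −1.81 (adjusted p = 0.085). Over all alternatives its adjusted p ranged from 7e-10 to 0.143 and its log2 fold change from −1.27 without WT replicate 1 to −2.30 without WT replicate 2. A genotype left with 1 mouse was there assumed to vary like the other. In T or NK barcodes both Tg mice (41.1 and 45.5 CPM) were below both WT mice (72.3 and 53.9 CPM). The same held in endothelial barcodes (14.8 and 14.3 against 28.5 and 19 CPM). In B barcodes the genotypes overlapped (26.4 and 14.5 CPM in Tg, 50.3 and 17.7 CPM in WT mice), as in the pooled other named barcodes. These differences were not tested, and the share of all genes without overlap in these classes was not computed. Whether the excess of Dnah8 in ciliated over other named barcodes differed between the genotypes was tested as an interaction, with a log2 difference of −1.60 (SE 0.27, adjusted p = 0.105), where 5 of 17563 genes (0.0285%) were called higher and 0 lower by edgeR (600 lower at an unadjusted p under 0.05).

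The 3 members with the next largest differences, named after their values were seen, were not called. Cfap157 stood at 12.5 and 10.6 CPM in WT and 42.3 and 23.9 CPM in Tg mice, where the log2 fold change was 1.48 (SE 0.37, adjusted p = 0.0663), Cfap126 at 36.7 and 32.9 CPM in WT and 96.1 and 50.6 CPM in Tg mice, with 1.05 (SE 0.34, adjusted p = 0.129), and Cfap298, an assembly factor of the dynein arms, at 26.7 and 28.2 CPM in WT and 75.1 and 39.4 CPM in Tg mice, with 1.04 (SE 0.34, adjusted p = 0.137). All 3 are short genes, of 7.05, 13.1 and 9.31 kb, and the highest of the 4 mice was Tg replicate 1 in each. With no filter on low counts, 3 members were called higher in Tg mice, where 1958 genes of all differed. With the replicate number as a block, it was also 3, where 2441 genes differed. Across 48 members, the logarithm of gene length and the genotype difference had a Pearson r of −0.60, and across 14275 genes it was −0.42, where the genes share the same 4 libraries. In the empty droplets, Cfap298 was higher in Tg mice (21.1 and 16.1 CPM in WT against 84.4 and 35.4 CPM in Tg, log2 fold change 2.04, adjusted p = 0.031) and Cfap299 was lower (285 and 121 against 58.0 and 46.7 CPM, −1.67, adjusted p = 0.039). Of 15180 genes tested in empty droplets, 14.5% were called higher and 11% lower.

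**Figure D4:**
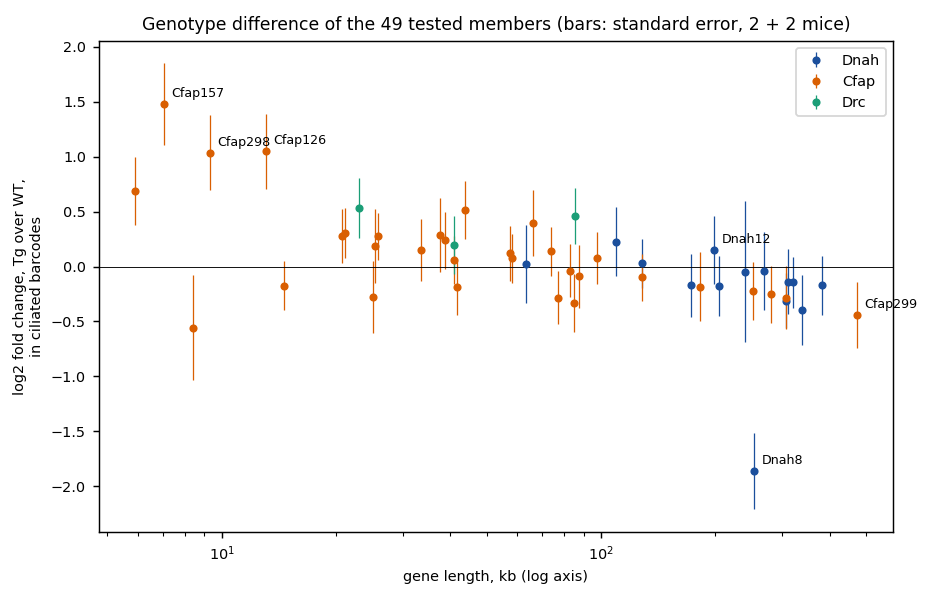
Log2 fold change of Tg over WT in ciliated barcodes against gene length in kilobases (log axis) for the 49 tested members. Dnah genes are blue, Cfap orange and Drc green. Bars give the standard error from the edgeR fit to 2 WT and 2 Tg mice. Most members lie near 0, Dnah8 at −1.86 is the only one called, and the short genes Cfap157, Cfap126 and Cfap298 lie above 1.

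Among the other lists, the deuterosome genes Stil and Cdc20b were lower in ciliated barcodes of the Tg mice, with log2 fold changes of −1.86 (adjusted p = 0.0486) and −1.77 (adjusted p = 0.0237). Cdc20b stood at 108 and 64.8 CPM in WT and 23.4 and 28.8 CPM in Tg mice and Stil at 27.5 and 14.8 CPM in WT and 5.21 and 6.82 CPM in Tg mice. Both act in the making of centrioles. The cytoplasmic dynein genes Dync1i1 (2.99), Dynll1 (1.46) and Dynlrb1 (1.31) were higher in Tg mice, 3 of 10 of that list, where 4.1% of all genes were called higher and 0.322% lower. In the empty droplets 5 of the 10 were called higher (median log2 fold change 0.91), where 14.5% of all genes were. In the other named barcodes, too, the genotypes did not overlap for Stil, Cdc20b or these 3 dynein genes, and the differences, which were not tested, had the same direction. There Dynll1 stood at 50.9 and 46.7 CPM in WT and 179.6 and 114 CPM in Tg mice, Dynlrb1 at 15.8 and 17.5 CPM in WT and 49.4 and 39.2 CPM in Tg mice and Dync1i1 at 5.71 and 14.3 CPM in WT and 20.5 and 22.4 CPM in Tg mice. Cdc20b stood at 11.2 and 6.41 CPM in WT and 6.05 and 4.06 CPM in Tg mice and Stil at 8.2 and 8.59 CPM in WT and 3.76 and 4.22 CPM in Tg mice in the other named barcodes. These pooled barcodes held 699 and 517 of alveolar type 2 in WT mice, 21 in Tg replicate 1 and under 20 in Tg replicate 2. Whether this make-up bears on the differences was not tested. The share of all genes without overlap in the pooled barcodes was not computed. With free RNA subtracted, where 1 gene of all was called, none of the 5 was, and the log2 fold changes in ciliated barcodes were −1.93 (adjusted p = 0.136) for Cdc20b, −2.09 (adjusted p = 0.197) for Stil, 2.85 (adjusted p = 0.123) for Dync1i1, 1.29 (adjusted p = 0.39) for Dynll1 and 0.67 (adjusted p = 0.726) for Dynlrb1. No gene of the intermediate and light chains, docking complex, assembly factors, radial spokes, molecular ruler, central apparatus, intraflagellar transport or transcription factor lists was called in ciliated barcodes by edgeR between the genotypes, and, as for the members, none of these lists was tested as a set.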

How the data were processed

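Nuclei of whole lungs from 2 WT and 2 Tg mice, 1 library a mouse, were sequenced on a 10x platform, and the authors deposited raw UMI counts per gene and barcode (Cell Ranger 6.1.1 and mm10, per the submitters' processing notes, introns included per the study's methods) without a selection of nuclei. Depth limits what low genes show: a count of 0 in a library allows up to 3 UMIs. Groups follow the labels.

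Barcodes of at least 1500 UMIs were named without clustering where the UMIs of the markers of exactly 1 of 17 classes (160 markers) exceeded the profile of that mouse's empty droplets (300 to 800 UMIs) by a Poisson test (p under 0.0001, at least 3 UMIs from at least 2 markers). Barcodes that passed for more classes were left out, which served as the treatment of doublets, and no doublet caller was run. Counts were summed per mouse and class and tested by edgeR 4.0.16 (quasi-likelihood, TMM, minimum count 10, Benjamini-Hochberg adjustment over all genes, threshold 0.05) in R 4.3.3 with limma 3.58.1, with the mouse as a block between classes. With 1 mouse a library, p-values between genotypes rest on the spread between these mice. Those between classes, or between a class and the empty droplets, rest on how evenly the difference within a mouse recurred over the mice. Standard errors are the absolute log2 fold change divided by the square root of the F statistic of the edgeR test. DESeq2 1.42.0, other filters, markers, depth limits, empty droplets and left-out mice were alternatives. Python 3.11.15, NumPy 2.4.6, SciPy 1.17.1, pandas 2.3.3 and matplotlib 3.10.9 did the rest, and the test scripts were tested on simulated data.

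The members and lists were chosen with earlier results of these data known. Genes were named by a rule: every Dnah and Drc gene with at least 10 UMIs in ciliated barcodes, the 10 Cfap genes with most UMIs there, members above the empty droplets in another class, members not called higher, members called between genotypes and, of the other lists, genes with the largest and smallest fold. Members outside it were named after their values were seen.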

Additional observations from a re-analysis of the deposited data

Results flagged for a closer look

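Among barcodes of at least 1500 UMIs that were given to no class, and that no comparison used, some held more UMIs of members than the empty droplets of the same mouse would give. They made 1.38% in Tg replicate 1 (251 of 18184), against 0.421% (95 of 22564) and 0.327% (109 of 33305) in WT replicates 1 and 2 and 0.321% (110 of 34309) in Tg replicate 2. As a whole, the unnamed barcodes held members at 2654, 1421, 1188 and 920 CPM in WT replicates 1 and 2 and Tg replicates 1 and 2, below the empty droplets in each mouse (76.1%, 90.3%, 64.9% and 69.0% of their level).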

How the results depend on the processing

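In every alternative that recomputed the count, 49 members were higher in ciliated barcodes, and between 44 and 49 were confined to them (45 as reported, 3 of them tested in 1 other class or none) except when classes were compared with the other named classes (22, with 28 members above elsewhere). The count of members above the empty droplets elsewhere (5) was 0 with empty droplets of 100 to 300 UMIs (2 at an unadjusted p under 0.05) and 1 with no mouse block. Members that differed between the genotypes in ciliated barcodes (1) were 0 with ciliated markers free of axonemal genes (5 at an unadjusted p) and with free RNA subtracted (3), 4 with no filter on low counts, and 1 to 4 when 1 mouse was left out (3 without WT replicate 1, 2 without WT replicate 2 and 4 without Tg replicate 2). The same count over all genes (632) was 314, 1 and 1958 under these 3 settings, and 281 (without Tg replicate 1) to 1671 (without WT replicate 2) when 1 mouse was left out. In the empty droplets, members that differed (2) were 0 with those of 100 to 300 UMIs (0 at an unadjusted p), 5 by DESeq2, 18 with no filter, 7 with those of 800 to 1000 UMIs, and 0 (without Tg replicate 1) to 17 (without WT replicate 2) when 1 mouse was left out. In these fits the lone mouse left in a genotype is assumed to vary like those of the other genotype. As reported, 14.5% of all genes tested in the empty droplets were called higher in Tg mice and 11% lower. The share of all genes called there was not counted for the alternatives, so their counts of members have no background. The summed level of the members in ciliated barcodes rose from 22678 to 31346 CPM with free RNA subtracted. With the replicate number as a block, 4 members and 2441 genes differed in ciliated barcodes and 11 members in empty droplets. The labels do not say that a number marks a shared batch. The deviations of same-numbered mice had a correlation of 0.294 across 14284 genes, and with 2 pairs it cannot be settled whether the numbers pair the mice. The empty droplets of 800 to 1000 UMIs and the markers without secreted transcripts were chosen after seeing the data. The cause of these changes was not tested.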
